A study of Mus musculus with 9 samples.

Results

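Expression of 41 genes for lysosomal hydrolases, lysosomal membrane proteins and their regulators was compared among 3 sorted macrophage populations of the mouse lung. The genes were chosen by symbol, and all 41 of 41 were found among the 24346 symbols of the files and passed the filter, an FPKM of 1 or more in 3 or more of 9 samples, which kept 10686 genes. They were divided into 11 cathepsins and 30 other genes. All mice were C57BL/6 females at postnatal week 10. Ctrl-AM were alveolar macrophages (AMs) of mice given vehicle, Tumor-AM were AMs of mice with Lewis lung carcinoma (LLC) cells, a lung cancer line of this strain that here carried tdTomato, placed on the left side of the lung, and the Tumor-macrophage group was the tumor-associated macrophages (TAMs) of such lungs. The sort took autofluorescent CD45+ cells, and AMs were Siglec-F+ whereas TAMs were Siglec-F- with F4/80 and CD11b on the surface. Each group held 3 samples. Control and tumor-bearing mice were bred separately, and whether a Tumor-AM and a Tumor-macrophage sample of the same number came from 1 mouse was not given.

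Lysosomes are acidic organelles in which macrophages break down ingested cells, lipids and proteins. Cathepsins are the main lysosomal proteases, most of them cysteine proteases and some aspartic or serine proteases. Glycosidases and sulfatases take apart sugar chains, lipid hydrolases and their activator proteins degrade membranes and lipoproteins, and heavily glycosylated membrane proteins line the organelle. In AMs these enzymes also clear surfactant. Transcription factors of the MiT/TFE family, TFEB and TFE3 among them, drive many lysosomal genes through a promoter element known as CLEAR.

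FPKM (fragment counts scaled to transcript length and library size) are relative levels corrected for length, so levels of different genes can be set side by side. Low values gave relative depths of 0.906 to 1.14, with Ctrl-AM 1 set to 1, and an estimated 9350000 to 11800000 reads per sample, before any correction of gene length for fragment size. The least covered of the 41 genes, Tfeb, stood at an estimated 64.5 reads in its lowest sample, so counting error was small for most of them. The summed FPKM of 9 AM marker genes ran from 27395 to 32825 in Ctrl-AM, from 23218 to 40082 in Tumor-AM and from 189 to 486 in Tumor-macrophage. That of 9 markers of monocyte-derived macrophages ran from 156 to 175, from 201 to 249 and from 14140.5 to 14683. In Ctrl-AM, Chil3 (23048 to 28521) made up most of the first sum and Adgre1 (131 to 145) most of the second. From Ctrl-AM to Tumor-AM, Fabp1 (log2 change −1.64, limma adjusted p = 0.0017) and Pparg (−0.53, limma adjusted p = 0.00455) fell. The other AM markers were not past an adjusted p of 0.05. Of the monocyte-derived markers, all but Adgre1 and Cx3cr1 were higher in Tumor-AM at a limma adjusted p under 0.05. Siglecf, the marker of the sort, was at 164 to 209 FPKM in the AM groups and at 0.46 to 0.84 in Tumor-macrophage. The sum of all FPKM differed between the groups, from 635560 to 660730 in Ctrl-AM, from 694977 to 731731 in Tumor-AM and from 743858 to 785745 in Tumor-macrophage. Setting all samples to the same sum (TPM) moved the median log2 change of all genes to −0.10 for Tumor-AM minus Ctrl-AM, −0.08 for Tumor-macrophage minus Tumor-AM and −0.21 for Tumor-macrophage minus Ctrl-AM, so small increases were sensitive to scaling. Tumor-macrophage 2 was the lowest of its group for 34 of the 41 genes. In these bulk samples, fewer cells of a type and less RNA per cell cannot be told apart.

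Promoter sequence was examined first, because the CLEAR element is shared by many lysosomal genes. RefSeq promoters of the assembly GRCm38.p6, from 250 bases before to 50 bases after the start site, were found for 37 of the 41 genes, and none were found for Ctsb, Ctsh, Galns and Asah1. The core of the element, CACGTG, reads the same on both strands and lay in the promoter of 11 of the 37 genes (29.7%), compared with 8.09% of all 27025 genes with a promoter and 12.3% of the 8195 of them that were tested here. The longer form TCACGTGA, which contains the core and is also its own reverse complement, lay in the promoters of 4 genes (10.8%), compared with 1.13% and 2.36%. These 4 genes were Ctsd, Ctsa, Gla and Mcoln1. The 7 genes with the core alone were Ctsf, Ctsl, Lgmn, Glb1, Gaa, Naglu and Lamp1, and Lamp1 held it 4 times. The stretches of 30 bases around the longer form are shown to compare its surroundings, with the matched letters in capitals.
Ctsd promoter, chr7:142387908-142387937, minus strand: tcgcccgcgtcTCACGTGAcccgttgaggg
Ctsa promoter, chr2:164833757-164833786, plus strand: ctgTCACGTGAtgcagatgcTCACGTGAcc
Gla promoter, distal match, chrX:134601215-134601244, minus strand: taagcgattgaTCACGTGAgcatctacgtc
Gla promoter, proximal match, chrX:134601182-134601211, minus strand: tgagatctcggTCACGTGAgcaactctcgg
Mcoln1 promoter, chr8:3500462-3500491, plus strand: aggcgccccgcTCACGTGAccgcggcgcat

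Matches began 99 bases before the start site in Ctsd, 46 before it in Mcoln1, 228 and 195 before it in Gla, and on both sides of it in Ctsa, 13 bases before and 4 after. The 250 bases before the start of Lamp1, the gene with most matches, and of Ctsk, the gene that moved most of the 41 from Tumor-AM to Tumor-macrophage, are shown for contrast. The 4 cores of Lamp1 began 61, 45, 28 and 15 bases before the start. The Ctsk window held neither form.
Lamp1 upstream, chr8:13158911-13159160, plus strand: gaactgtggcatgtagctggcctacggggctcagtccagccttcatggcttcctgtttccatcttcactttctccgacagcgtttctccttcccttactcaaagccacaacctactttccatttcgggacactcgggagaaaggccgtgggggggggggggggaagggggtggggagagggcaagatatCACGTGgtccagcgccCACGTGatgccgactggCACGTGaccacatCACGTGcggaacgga
Ctsk upstream, chr3:95498960-95499209, plus strand: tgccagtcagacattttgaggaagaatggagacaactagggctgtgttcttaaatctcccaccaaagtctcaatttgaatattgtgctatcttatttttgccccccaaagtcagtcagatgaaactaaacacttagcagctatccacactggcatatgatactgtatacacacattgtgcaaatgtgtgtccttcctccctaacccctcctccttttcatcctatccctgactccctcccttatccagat

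The levels of the 41 genes spanned a wide range in all 3 populations. Ctsd, the main aspartic protease of the lysosome, was the highest of them in every group, at 8824 ± 379.8 FPKM in Ctrl-AM (SD, n = 3), and Ctss, a cysteine protease that trims the invariant chain of MHC class II, followed at 4219 ± 295. Cd68, a lysosomal membrane glycoprotein used as a macrophage marker, Ctsz and Psap, the precursor of the saposins, completed the first 5 in Ctrl-AM. At the low end stood Arsb at 6.78 ± 0.95, Idua at 10.8 ± 0.823 and Smpd1 at 11.1 ± 1.12 FPKM. The order of the lowest neighbours Idua and Smpd1 was within their spread. In Tumor-macrophage, Ctsb took place 3 and Lgmn rose to place 11 from place 22 in Ctrl-AM, whereas Ctsk went from place 13 in Ctrl-AM and 9 in Tumor-AM to place 28.

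The 41 genes held a larger share of the summed FPKM in tumor-bearing lungs. Their share was 3.53%, 3.67% and 3.60% in the Ctrl-AM samples, 4.69%, 4.46% and 5.03% in those of Tumor-AM and 6.07%, 5.32% and 6.18% in those of Tumor-macrophage. The 3 groups did not overlap, and Tumor-macrophage 2 was again the lowest of its group. Cathepsins alone held 2.61% ± 0.0559, 3.47% ± 0.232 and 3.98% ± 0.376 (SD, n = 3 each), with 3.71% in the highest Tumor-AM sample above the 3.55% of the lowest Tumor-macrophage sample. The other 30 genes held 0.994% ± 0.0131, 1.26% ± 0.0522 and 1.88% ± 0.0913. With Ctsd and Ctss left out the share was 1.60%, 1.99% and 3.10% on average, without overlap between the groups. These are sums over chosen genes and carry no test.

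**Figure D1:**
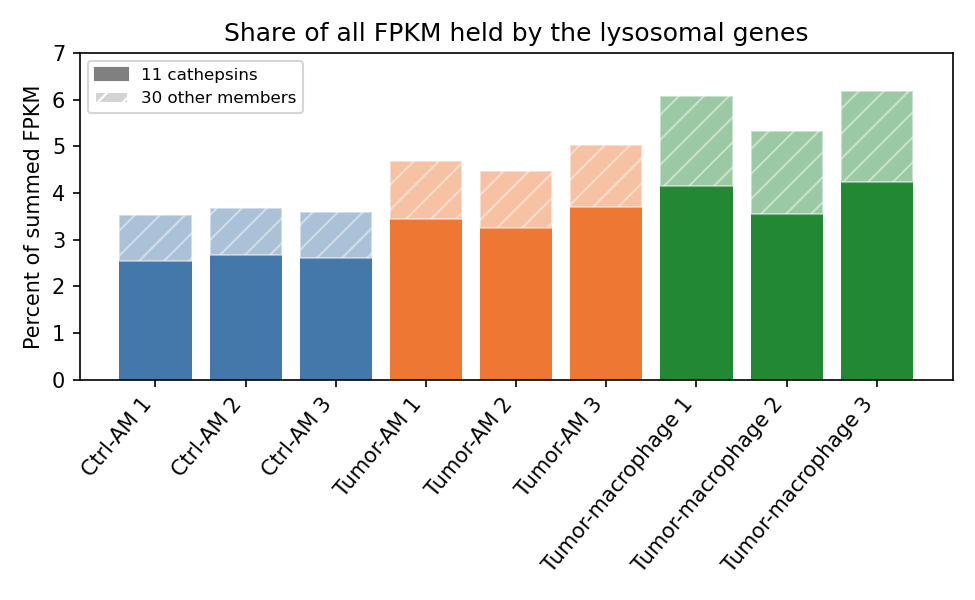
Share of the summed FPKM (percent, y axis) held by the 11 cathepsins (solid) and the 30 other lysosomal genes (hatched) in each of the 9 samples (x axis). The Ctrl-AM bars end between 3.53% and 3.67%, the Tumor-AM bars between 4.46% and 5.03% and the Tumor-macrophage bars between 5.32% and 6.18%.

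The mix of cathepsins also differed. Ctsd made up 52.0% ± 1.03 of the cathepsin FPKM of Ctrl-AM and 54.1% ± 1.87 of that of Tumor-AM, compared with 36.0% ± 3.47 in Tumor-macrophage (SD, n = 3 each). Ctss held 24.8% ± 1.19, 24.9% ± 2.11 and 33.1% ± 1.25, and Ctsb, which encodes a cysteine protease with both endopeptidase and dipeptidase activity, held 2.93% ± 0.0332, 2.96% ± 0.0533 and 9.88% ± 0.421. The AM groups thus had like shares of these 3, while TAMs had more Ctsb and Ctss for each unit of Ctsd. Ctsk held 2.35% ± 0.172 in Ctrl-AM, then 2.96% ± 0.532 in Tumor-AM and stood at 0.155% ± 0.0255 in Tumor-macrophage.

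The effect of the tumor on AMs was addressed by comparing Tumor-AM with Ctrl-AM. Of the 11 cathepsins, 6 were higher and 1 was lower in Tumor-AM at a limma adjusted p under 0.05, and of the other 30 genes, 13 were higher and 0 were lower. Over all genes tested, 7.11% were called higher and 3.18% lower. The median log2 change was 0.33 over the cathepsins and 0.32 over the other genes, compared with 0.01 over all genes. At an unadjusted limma p under 0.05, 9 cathepsins were higher and 1 was lower, and 20 of the other 30 genes were higher and 0 were lower. The share of all genes at this looser threshold was not computed, neither here nor for the lists below. The increases were modest, and the calls rested on all 3 samples of each AM group. The counts of 6 cathepsins and 13 other genes fell to 2 and 8 without Ctrl-AM 1, Ctrl-AM 3 or Tumor-AM 3, to 3 and 10 without Ctrl-AM 2, and to 4 and 10 without Tumor-AM 1 or Tumor-AM 2. With no filter on low values, 2 cathepsins and 8 others were called, and after rescaling to TPM 5 and 7 were. No called gene changed sign in any of the 15 alternatives, and Cd63, Cd68, Ctsb, Ctsl, Galns, Gla, Grn and Lgmn were called higher in all 15.

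Tumor-macrophage was next set against Tumor-AM, the other macrophage population of tumor-bearing mice. Here 7 cathepsins were higher and 1 was lower, and of the other 30 genes 16 were higher and 8 lower. Over all genes, 24.2% were called higher and 24.4% lower. Medians were 0.61 for the cathepsins, 0.34 for the other genes and 0.00117 for all genes. Against Ctrl-AM, a comparison that shares its samples with the other 2, 7 cathepsins were higher and 2 lower, and 20 of the other genes were higher and 7 lower, where 27.7% of all genes were higher and 27.1% lower.

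**Figure D2:**
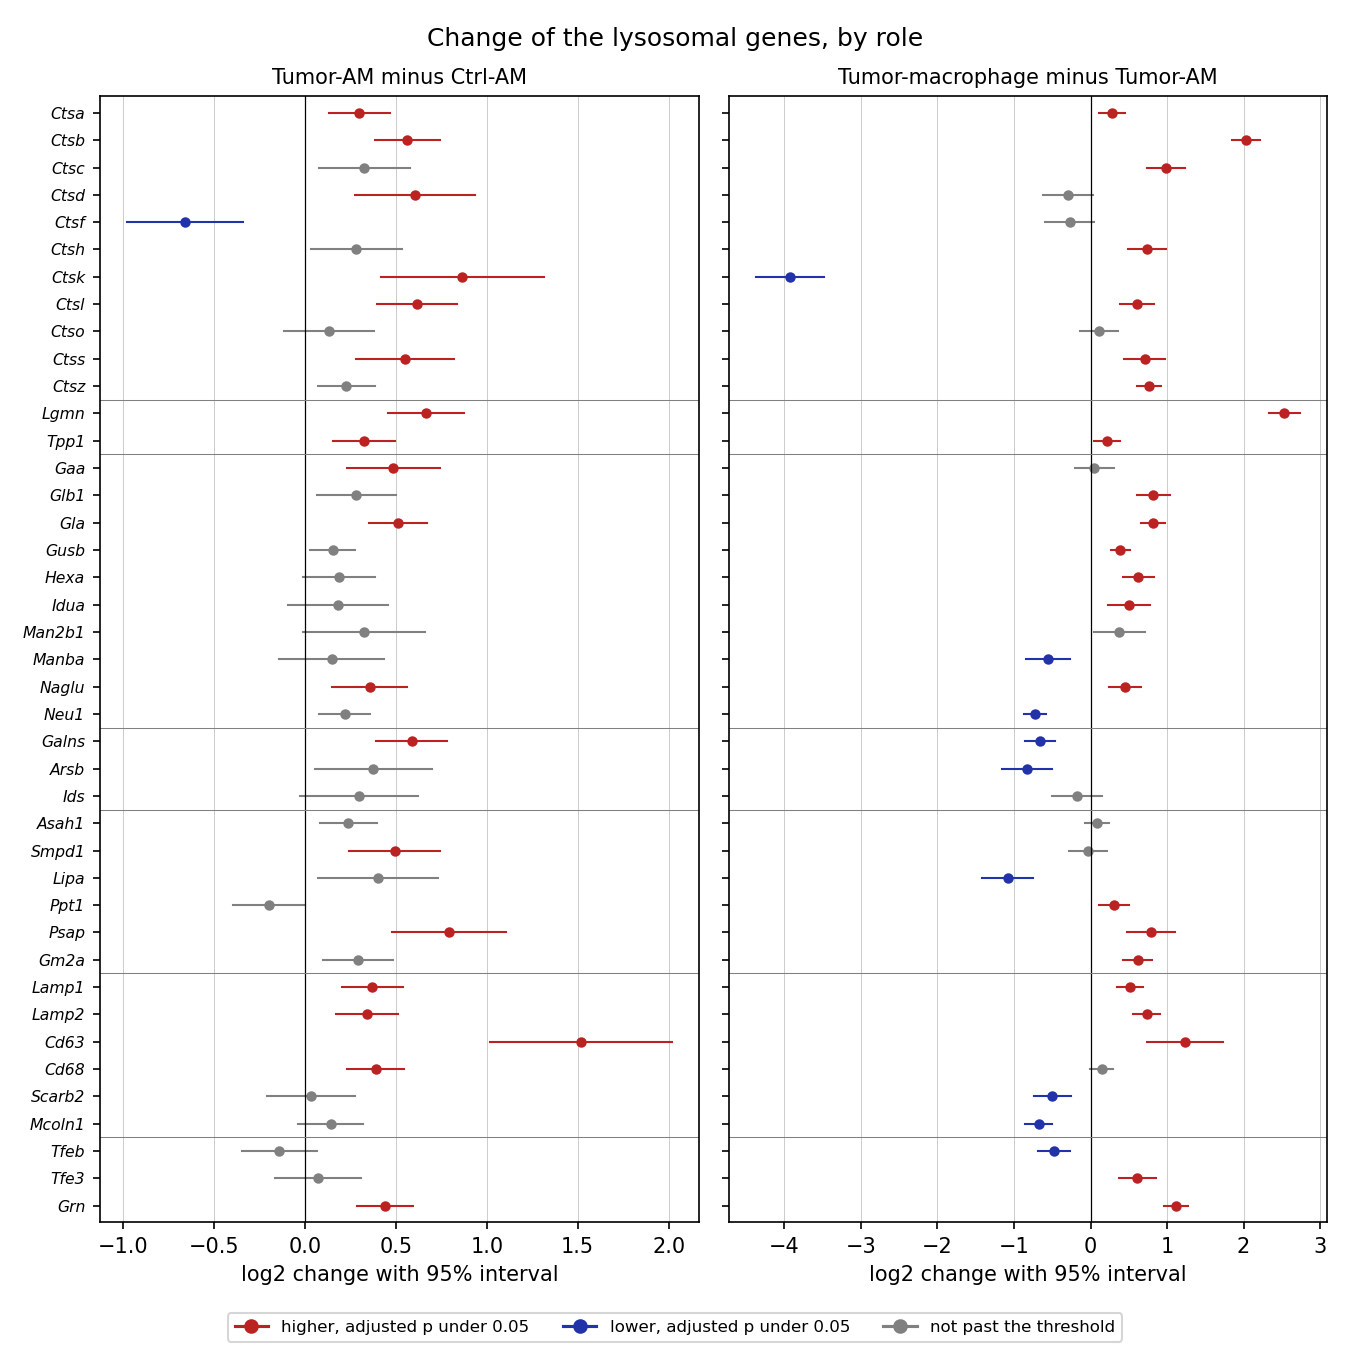
Change of each of the 41 genes on the log2(FPKM + 1) scale with its 95% interval from the limma fit (x axis), for Tumor-AM minus Ctrl-AM (left) and Tumor-macrophage minus Tumor-AM (right), with genes ordered by role (y axis). Red and blue mark changes past the threshold. On the left most points lie between 0 and 1, with Cd63 at 1.52 above them and Ctsf at −0.66, Ppt1 at −0.20 and Tfeb at −0.14 below 0, and on the right they spread from −3.92 for Ctsk to 2.53 for Lgmn.

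Among the cathepsins, Ctsk had the largest changes, in opposite directions in the 2 comparisons of the tumor-bearing mice. Ctsk encodes a collagen- and elastin-degrading cysteine protease best known from osteoclasts and lies on chromosome 3 (95499256 to 95509362, plus strand, in the mm10 assembly). It was at 423, 384 and 387 FPKM in Ctrl-AM, at 562, 785 and 866 in Tumor-AM and at 54.4, 33.2 and 56.7 in Tumor-macrophage. The 3 groups were fully apart, with Tumor-macrophage far below both AM groups. The change was 0.87 ± 0.202 (SE) from Ctrl-AM to Tumor-AM (limma adjusted p = 0.0234) and −3.92 ± 0.202 from Tumor-AM to Tumor-macrophage (limma adjusted p = 7.87e-08), where mean FPKM were 15.3 times higher in Tumor-AM. The rise in Tumor-AM lost its call without any 1 of the 3 Ctrl-AM samples, without Tumor-AM 2 or 3 and with no filter, with changes of 0.74 to 1.05 when samples were left out. The summed FPKM of 5 fibroblast markers ran from 3.24 to 6.35 for Ctrl-AM and from 7.84 to 50.1 for Tumor-AM. Its highest value was that of Tumor-AM 3. Most of the increase came from Col3a1 (mean 1.13, then 9.77) and Dcn (2.52, then 12.3). Of the other markers, Pdgfra rose (0.188, then 0.632), Col1a1 was near level (0.579, then 0.558) and Col1a2 fell (0.556, then 0.292). The part of fibroblast RNA in the Ctsk level was not tested.

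Ctsb changed in the same direction throughout. It lies on chromosome 14 (63122462 to 63145923, plus strand) and was at 495, 508 and 487 FPKM in Ctrl-AM, at 723, 701 and 783 in Tumor-AM and at 3059.7, 2731 and 3251 in Tumor-macrophage. No sample of one group reached into another. The log2 changes were 0.56 ± 0.080 (limma adjusted p = 0.00222) and then 2.03 ± 0.080 (limma adjusted p = 1.12e-08), so mean FPKM in Tumor-macrophage were 4.10 times those of Tumor-AM and 6.07 times those of Ctrl-AM. In GENCODE, 12.8% of its exonic bases also belonged to Fdft1, and since the use of strand in counting was not stated, reads there may have been assigned to either gene.

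The abundant Ctsd and Ctss rose in AMs of tumor-bearing mice and then parted. Ctsd was at 8878, 9174 and 8420.5 FPKM in Ctrl-AM, at 12440.5, 13149.6 and 14776 in Tumor-AM and at 11801, 8496 and 12977 in Tumor-macrophage. Its Tumor-AM samples all lay above Ctrl-AM (0.61 ± 0.148, limma adjusted p = 0.0286), whereas Tumor-macrophage overlapped both. The call in Tumor-AM was lost without any 1 of the Ctrl-AM samples, without Tumor-AM 2 or 3, with no filter and after quantile normalization. The change to Tumor-macrophage was −0.30 ± 0.148 (limma adjusted p = 0.123, 95% interval −0.63 to 0.03), and it was past the threshold after quantile normalization, after rescaling to TPM and without Tumor-macrophage 3. An annotated gene model, Gm49369, shares 34.4% of the exonic bases of Ctsd and 31.3% of the 75-base windows of its transcripts, so its values are less certain. Ctss was at 3939.9, 4527 and 4189.8 FPKM, then at 6498, 5447 and 6643, and at 11095, 8636 and 10699.5 in Tumor-macrophage. It rose without overlap in both steps, by 0.55 ± 0.121 (limma adjusted p = 0.0182) and by 0.71 ± 0.121 (limma adjusted p = 0.000623). The former call was lost without Ctrl-AM 1 or 3, without Tumor-AM 1 or 3 and with no filter, and the latter with no filter and after quantile normalization, where the change was 0.04.

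Ctsf was the 1 cathepsin that fell in Tumor-AM. Its FPKM were 23.0, 19.9 and 23.1 in Ctrl-AM, then 15.8, 11.2 and 14.0 in Tumor-AM and lastly 13.2, 9.55 and 10.7 in Tumor-macrophage. Every Ctrl-AM sample was above every sample of tumor-bearing mice, and the latter overlapped each other. The change was −0.66 ± 0.143 in Tumor-AM (limma adjusted p = 0.0177), and it lost its call without Ctrl-AM 1 or 3 and with no filter. Ctsl, a cysteine endopeptidase, was called higher in both steps (0.62 and 0.61), as was Ctsa, the protective protein of neuraminidase and β-galactosidase (0.30 and 0.28). Other annotated genes cover 26.85% of the exonic bases of Ctsl and 17.4% of those of Ctsa, so their values are less certain. The Ctsa call in Tumor-AM stood in 5 of the 15 alternatives and was lost without any 1 of the 6 AM samples.

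Ctsc, the dipeptidase that activates granule serine proteases, and Ctsh and Ctsz, with aminopeptidase and carboxypeptidase activity, were not past the threshold in Tumor-AM (0.33, 0.28 and 0.23, limma adjusted p of 0.101, 0.152 and 0.0682) and were higher in Tumor-macrophage than in Tumor-AM by 0.99, 0.74 and 0.77. Ctsc had uneven replicates there, at 1856, 2470.3 and 1934 FPKM, and was 1 of 6 genes for which Tumor-macrophage 2 was the highest sample. Ctso, with the smallest change of all cathepsins, was at 26.7, 29.9 and 27.8 FPKM in Ctrl-AM, at 34.9, 26.7 and 31.8 in Tumor-AM and at 37.5, 30.5 and 32.7 in Tumor-macrophage. Its AM groups overlapped, and neither the change of 0.13 (95% interval −0.11 to 0.38) nor that of 0.11 (−0.14 to 0.36) was past the threshold.

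**Figure D3:**
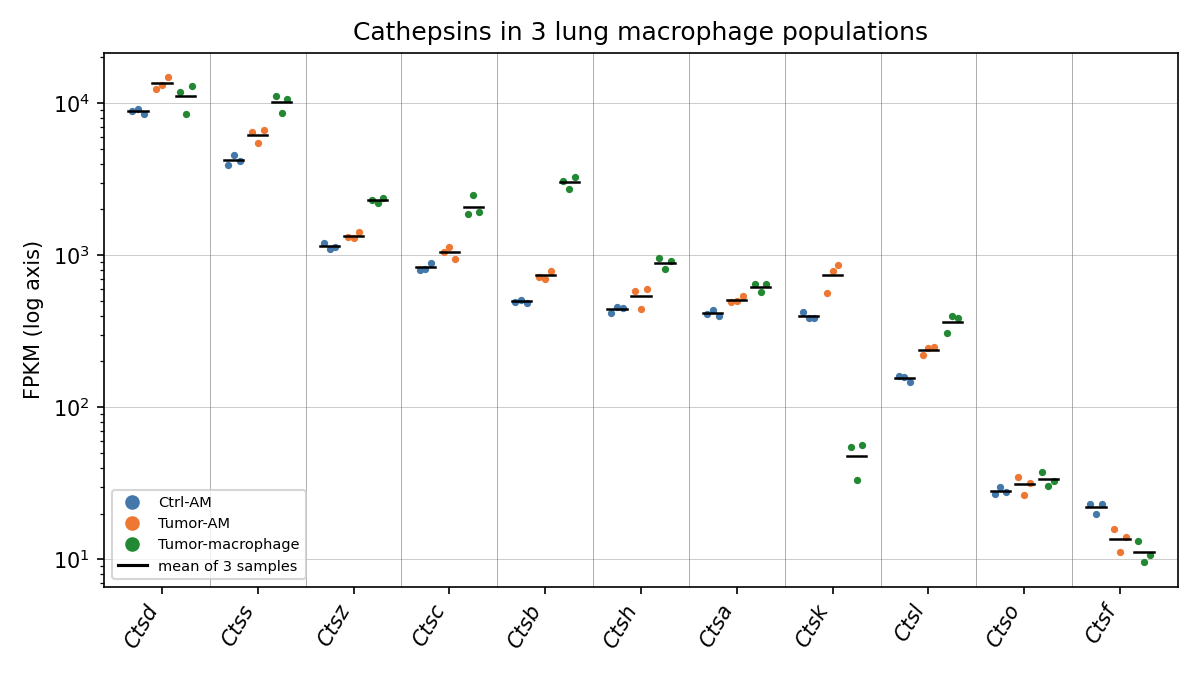
FPKM of the 11 cathepsins (log y axis) in the 9 samples, with genes ordered by their level in Ctrl-AM (x axis), a point per sample and a bar at the mean of 3 samples. Most genes step up from Ctrl-AM to Tumor-AM to Tumor-macrophage, whereas Ctsk lies between 33.2 and 56.7 in Tumor-macrophage against 384 to 866 in the AM groups.

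Lgmn and Tpp1 were the other 2 proteases. Lgmn encodes legumain, an asparaginyl endopeptidase that processes cathepsins to their mature forms, and lies on chromosome 12 (102394084 to 102439813, minus strand). Its FPKM were 160.3, 146 and 130.5 in Ctrl-AM, then 209.5, 234 and 252 in Tumor-AM and lastly 1277, 1409.6 and 1342 in Tumor-macrophage. The groups were fully apart, and Lgmn had the largest increase of all 41 genes in Tumor-macrophage, by 2.53 ± 0.093 over Tumor-AM (limma adjusted p = 7.07e-09) and by 3.20 ± 0.093 over Ctrl-AM (limma adjusted p = 1.05e-09). In Tumor-AM it was higher by 0.67 ± 0.093 (limma adjusted p = 0.00215). Tpp1, a tripeptidyl peptidase, was higher by 0.32 in Tumor-AM and by a further 0.21 in Tumor-macrophage, and the latter call (limma adjusted p = 0.0427) stood in 4 of 15 alternatives. The former was lost without Ctrl-AM 1 or 3, without any 1 of the Tumor-AM samples, with no filter and after TPM.

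Of the 10 glycosidases, 3 were higher in Tumor-AM (Gla 0.51, Gaa 0.49 and Naglu 0.36) and 0 were lower, where 7.11% of all genes were higher and 3.18% lower. Gla encodes α-galactosidase A and was at 20.5, 22.9 and 20.9 FPKM in Ctrl-AM, at 30.5, 30.3 and 32.0 in Tumor-AM and at 55.0, 53.9 and 56.8 in Tumor-macrophage. Its groups were tight and apart from each other, with a second increase of 0.82 ± 0.072 (limma adjusted p = 4.89e-06). Gaa, the enzyme of glycogen breakdown, and Naglu, which acts on heparan sulfate, lost their calls in Tumor-AM in 8 and 11 of 15 alternatives, among them each Tumor-AM sample, Ctrl-AM 1 and Ctrl-AM 3 left out.

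In Tumor-macrophage 6 glycosidases were higher than in Tumor-AM, led by Glb1 (β-galactosidase, 0.82), Gla and Hexa (the α subunit of hexosaminidase A, 0.62), and 2 were lower. Of all genes, 24.2% were called higher and 24.4% lower. The 2 lower glycosidases were Neu1 and Manba. Neu1, the lysosomal sialidase, was at 58.2, 60.3 and 59.7 FPKM in Ctrl-AM, at 68.3, 69.3 and 70.3 in Tumor-AM and at 42.6, 39.7 and 42.6 in Tumor-macrophage, a change of −0.72 ± 0.063 (limma adjusted p = 4.35e-06). The rise of Neu1 in Tumor-AM, although without overlap, missed the threshold (0.22, limma adjusted p = 0.0533). Manba, β-mannosidase, was at 32.1, 37.4 and 31.9, at 38.5, 33.7 and 40.5, and at 29.7, 20.7 and 26.1 FPKM, so that only Tumor-macrophage was apart from the others (−0.55 ± 0.130, limma adjusted p = 0.00493). Gusb, Idua and Naglu were higher in Tumor-macrophage by 0.39, 0.50 and 0.45, and 2 genes missed the threshold, Gaa (0.05) and Man2b1 (0.38, limma adjusted p = 0.0614).

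The 3 sulfatases behaved unlike most hydrolases in Tumor-macrophage, where 2 were lower than in Tumor-AM and 0 were higher, with a negative change for all 3. Galns, which acts on keratan and chondroitin sulfate, was at 30.1, 29.6 and 36.0 FPKM in Ctrl-AM, at 46.2, 47.2 and 51.5 in Tumor-AM and at 29.9, 30.6 and 30.2 in Tumor-macrophage. It was thus high only in Tumor-AM, by 0.59 ± 0.088 over Ctrl-AM (limma adjusted p = 0.00287) and with a decrease of −0.66 ± 0.088 to Tumor-macrophage (limma adjusted p = 0.000114), while Tumor-macrophage and Ctrl-AM differed by −0.07 (95% interval −0.26 to 0.13). Arsb, arylsulfatase B, was at 5.70, 7.11 and 7.51, at 9.01, 8.54 and 9.61 and at 4.35, 3.91 and 5.89 FPKM. Its Tumor-AM samples were the highest, and the change to Tumor-macrophage was −0.83 ± 0.145 (limma adjusted p = 0.000765). Other annotated genes cover 39.9% of its exonic bases. Ids, iduronate 2-sulfatase, was not past the threshold in any comparison, with changes of 0.30 and −0.18.

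**Figure D4:**
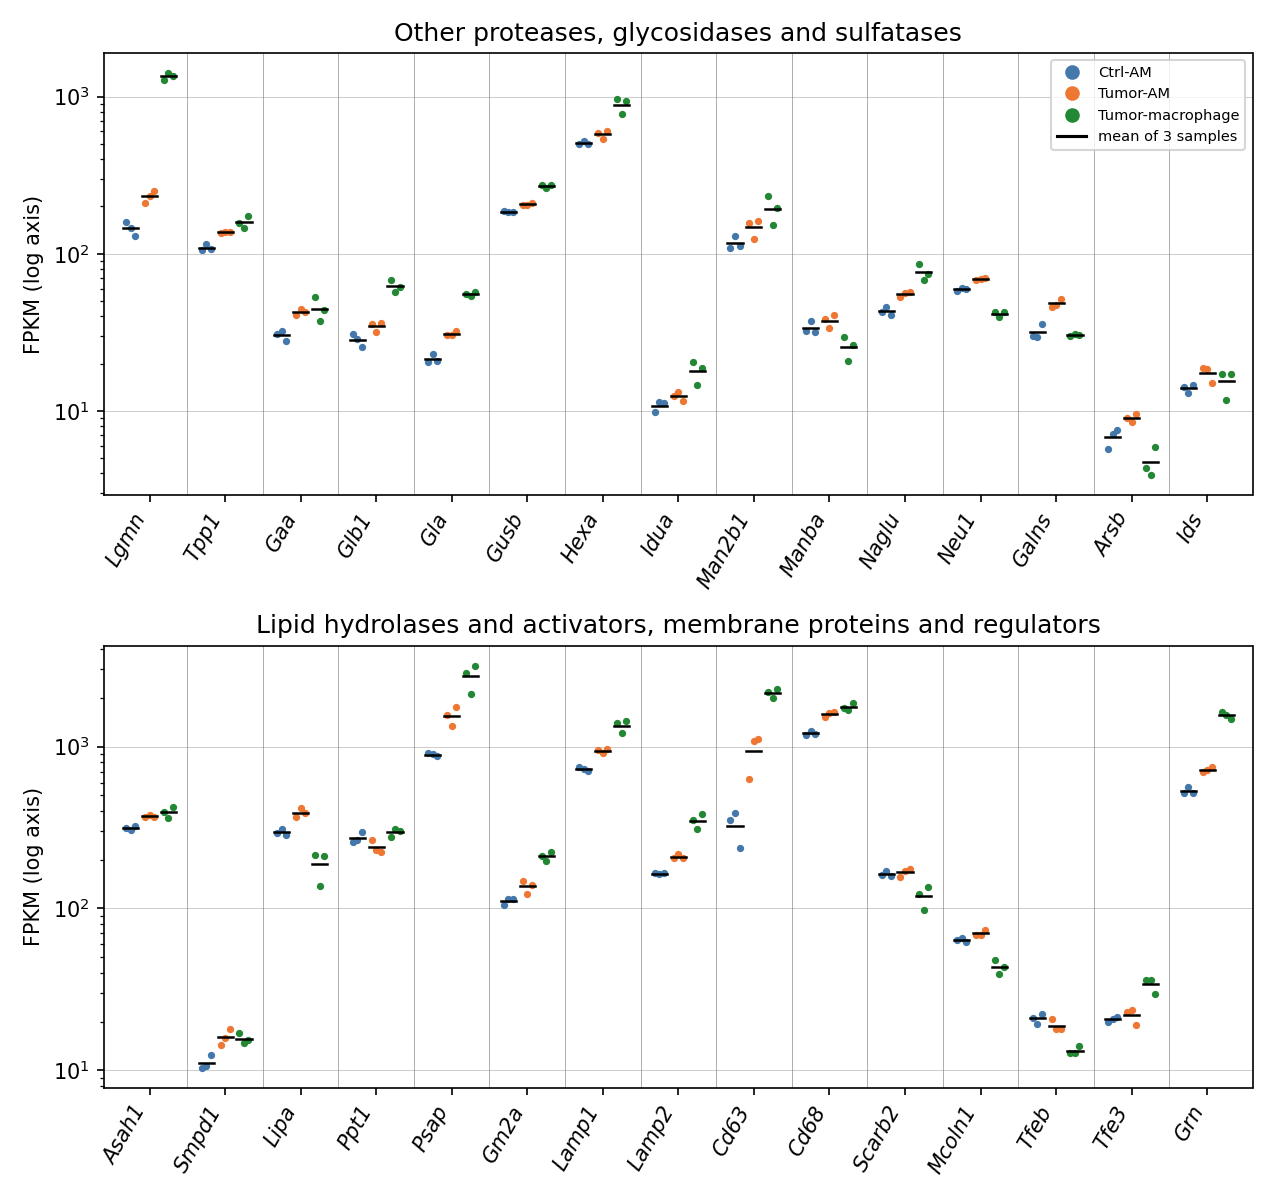
FPKM of the 30 other genes (log y axis) in the 9 samples, by role and gene (x axis), a point per sample and a bar at the mean of 3 samples. Lgmn, Psap, Cd63 and Grn have Tumor-macrophage means at least 2.94 times those of Ctrl-AM, and Manba, Neu1, Galns, Arsb, Lipa, Scarb2, Mcoln1 and Tfeb have their lowest mean in Tumor-macrophage.

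Lipid hydrolases and their activators were divided as well. Psap, whose saposins help to degrade sphingolipids, was at 909.7, 896 and 874 FPKM in Ctrl-AM, at 1575, 1347 and 1751 in Tumor-AM and at 2865, 2122 and 3156 in Tumor-macrophage. It rose without overlap by 0.79 ± 0.141 in both steps (limma adjusted p = 0.00629 and 0.000869), although the first was not called with no filter and the second was 0.33 and not called after quantile normalization. Lipa, the acid lipase that releases cholesterol and fatty acids from lipoprotein lipids, was at 294, 311 and 283 FPKM in Ctrl-AM, at 366, 418 and 391 in Tumor-AM and at 215, 137 and 211 in Tumor-macrophage. Tumor-AM lay above Ctrl-AM without passing the threshold (0.40 ± 0.149, limma adjusted p = 0.122), and Tumor-macrophage lay below both, by −1.08 ± 0.149 against Tumor-AM (limma adjusted p = 0.000135). The direction of Lipa and of Psap therefore differed within TAMs.

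Ppt1, a palmitoyl-protein thioesterase, was the 1 lipid hydrolase with a negative change in Tumor-AM (−0.20, 95% interval −0.40 to 0.00, limma adjusted p = 0.204). Its FPKM were 256, 266 and 298 in Ctrl-AM, then 264, 228 and 223 in Tumor-AM and lastly 274, 309.7 and 302 in Tumor-macrophage, so that the AM groups overlapped and TAMs were above Tumor-AM (0.31, limma adjusted p = 0.0143, lost without Tumor-AM 3, with no filter and after TPM). Smpd1, acid sphingomyelinase, was higher in Tumor-AM by 0.49 (limma adjusted p = 0.0213, lost without Ctrl-AM 1 or 2 or Tumor-AM 3, with no filter and after TPM) and had the smallest change of all genes to Tumor-macrophage. It was at 10.3, 10.6 and 12.4 FPKM, at 14.3, 15.8 and 18.1 and at 17.1, 14.6 and 15.3, so the tumor-bearing groups overlapped (−0.03, 95% interval −0.28 to 0.22). Gm2a, the activator of ganglioside breakdown, was higher in Tumor-macrophage by 0.62, and Asah1, acid ceramidase, was not past the threshold in either step (0.24 and 0.09).

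Membrane proteins were led by Cd63, a tetraspanin of late endosomes, lysosomes and exosomes on chromosome 10 (128900989 to 128912822, plus strand). Cd63 was at 352, 388 and 236 FPKM in Ctrl-AM, at 630.4, 1081 and 1111 in Tumor-AM and at 2171, 1999.6 and 2287 in Tumor-macrophage. Although it varied more within the AM groups than any other of the 41 genes, with an SD of 24.4% and 28.6% of the mean, its groups did not overlap. It had the largest increase of all members in Tumor-AM (1.52 ± 0.225, limma adjusted p = 0.00277) and a second one of 1.24 ± 0.225 in Tumor-macrophage (limma adjusted p = 0.000976). A processed copy, Cd63-ps, shares 6.47% of the 75-base windows of its transcripts.

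Lamp1 and Lamp2, the main glycoproteins of the lysosomal membrane, were higher in Tumor-AM by 0.37 and 0.34 and in Tumor-macrophage by a further 0.51 and 0.73. Lamp2 lost the first of these calls in 7 of 15 alternatives, among them any 1 Ctrl-AM sample, Tumor-AM 2 or Tumor-AM 3 left out, and Lamp1 in 3, among them Ctrl-AM 3 left out. Cd68 was at 1185, 1258 and 1205 FPKM, at 1519, 1626 and 1633, and at 1738, 1683 and 1859. It was higher than in Ctrl-AM in both groups of tumor-bearing mice, by 0.39 ± 0.070 in Tumor-AM (limma adjusted p = 0.00655) and by 0.53 in Tumor-macrophage (limma adjusted p = 7.96e-05). The change of 0.14 between these groups was not past the threshold and turned to −0.21 after quantile normalization, where it was past the threshold.

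Scarb2 and Mcoln1 went the other way in TAMs. Scarb2, the receptor that carries glucocerebrosidase to lysosomes, was at 162, 170.0 and 158 FPKM in Ctrl-AM, at 155, 171 and 175 in Tumor-AM and at 123, 97.7 and 135 in Tumor-macrophage. The AM groups overlapped, and the change of 0.03 in Tumor-AM was the smallest of all 41 genes in that comparison and turned negative after quantile normalization or rescaling to TPM. Mcoln1, a calcium channel of the lysosomal membrane that acts upstream of TFEB, was at 63.4, 65.5 and 61.7, at 68.1, 68.9 and 73.8 and at 47.9, 39.4 and 43.6 FPKM. Tumor-macrophage had less of both than Tumor-AM, with changes of −0.50 ± 0.109 (limma adjusted p = 0.00316) and −0.68 ± 0.081 (limma adjusted p = 4.77e-05).

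Regulators were measured at the transcript level alone, although TFEB and TFE3 are mainly controlled by phosphorylation and by entry into the nucleus. Tfeb was at 20.9, 19.3 and 22.4 FPKM in Ctrl-AM, at 20.6, 18.0 and 18.0 in Tumor-AM and at 12.8, 12.7 and 14.2 in Tumor-macrophage. Tfe3 was at 19.7, 20.8 and 21.2, at 22.8, 23.6 and 19.0 and at 35.9, 36.2 and 29.6. Neither was past the threshold between the AM groups (−0.14 and 0.07, limma adjusted p of 0.403 and 0.728), and from Tumor-AM to Tumor-macrophage Tfeb was lower (−0.48 ± 0.093, limma adjusted p = 0.00153) while Tfe3 was higher by 0.61 ± 0.107 (limma adjusted p = 0.000719). Tfe3 exceeded Tfeb in every Tumor-AM and every Tumor-macrophage sample, and in Ctrl-AM their values overlapped. Grn, the precursor of the granulins that support lysosomal enzymes, was at 515, 559 and 516 FPKM, at 695, 714 and 749 and at 1626, 1576 and 1479. It was higher in each group than in the one before, by 0.44 ± 0.069 (limma adjusted p = 0.00349) at first and then by 1.12 ± 0.069 (limma adjusted p = 2.91e-07).

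Genes with and without the promoter core were compared as a description. Of the 11 genes with CACGTG, 8 were higher and 1 (Ctsf) was lower in Tumor-AM, compared with 9 and 0 of the 26 genes without it. Over all genes tested, 7.11% were called higher and 3.18% lower. From Tumor-AM to Tumor-macrophage 7 were higher and 1 (Mcoln1) was lower with the core, and 14 were higher and 7 lower without it. There, 24.2% of all genes were called higher and 24.4% lower. The shares called among all genes with the core were not computed, so no link to the core can be read from these counts. The medians were 0.37 and 0.31 for the former comparison and 0.45 and 0.34 for the latter. The 4 genes with the longer form did not move alike, since Ctsd, Ctsa and Gla were higher in Tumor-AM but Mcoln1 (0.14) was not past the threshold, and in Tumor-macrophage Mcoln1 was lower.

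Markers of the TAM population in Tumor-AM were set beside the lysosomal genes. Adgre1, which encodes F4/80, was also present in AMs, at 131 to 145 FPKM in Ctrl-AM, 115 to 128 for Tumor-AM and 321 to 442 for Tumor-macrophage. On a scale from the Ctrl-AM mean (0%) to the Tumor-macrophage mean (100%), the Tumor-AM samples stood at 0.356% to 0.856% for C1qb, at 0.176% to 0.541% for C1qc and at 1.68% to 2.30% for Itgam, and the highest position was 11.6%, for Ccr2 in Tumor-AM 1. The lysosomal genes stood at 16.7% to 43.0% for Cd63, at 5.33% to 8.89% for Lgmn, at 8.12% to 11.4% for Ctsb, at 16.0% to 21.3% for Grn and at 24.9% to 47.1% for Psap. Ccr2 (3.99% to 11.6%) overlapped Lgmn and Ctsb on this scale, and Ly6c2 (4.33% to 5.86%) overlapped Lgmn. The part of TAM RNA in the Tumor-AM levels was not tested.

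Wider lists of lysosomal genes were read from the same fits. Of 104 further genes tested, 21 were called higher between the AM groups, in favor of Tumor-AM, and 0 were lower (3 at an unadjusted p under 0.05, and 6 adjusted after rescaling to TPM), with a median change of 0.12. The 21 were 20.2% of the list, where 7.11% of all genes were called higher. The 21 became 9 with no filter or after rescaling to TPM and 8 to 26 when a sample was left out. From Tumor-AM to Tumor-macrophage 34 were higher (32.7%) and 31 were lower (29.8%), with a median of 0.04, where 24.2% and 24.4% of all genes were. Of 11 further cathepsins only 2 were expressed enough to be tested, with 0 called between the AM groups (also 0 at an unadjusted p under 0.05 in limma). Of all 104 genes, 7 passed the filter only through the 3 Tumor-macrophage samples, Ctse, Sgsh, Hyal1, Tpcn1, Sorl1, Igf2r and Cst7, so that they had to be higher there and their values are given as a description. They are counted among the 104, so the shares called higher in Tumor-macrophage, in total and in their lists, were in part set by the filter.

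Subunits of the V-ATPase, the proton pump that acidifies lysosomes, had 2 members higher (11.1%) and 6 lower (33.3%) of 18 in TAMs, where 24.2% and 24.4% of all genes were. Atp6v0d2, a subunit abundant in osteoclasts and AMs, was at 711, 671 and 735 FPKM in Ctrl-AM, at 722, 789 and 722 in Tumor-AM and at 71.6, 55.0 and 92.1 in Tumor-macrophage, a decrease of −3.36 ± 0.147 (limma adjusted p = 2.54e-08). It thus fell with Ctsk in TAMs but, unlike Ctsk, was not past the threshold in Tumor-AM. Atp6v1a and Tcirg1 were higher in both steps, by 0.36 and 0.35 and then by 0.40 and 0.37, and both of the former calls were lost without Ctrl-AM 1 or 3 and without Tumor-AM 2 or 3, that of Atp6v1a also without Ctrl-AM 2.

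Among 27 further hydrolases, 9 (33.3%) were higher in Tumor-AM, where 7.11% of all genes were. They included Acp5, the tartrate-resistant acid phosphatase (0.89 ± 0.106, limma adjusted p = 0.000904). Acp5 was at 285, 291 and 255 FPKM in Ctrl-AM, at 551, 434 and 563 in Tumor-AM and at 313, 302 and 347 in Tumor-macrophage, so that, like Galns, it was highest in Tumor-AM. In TAMs 12 were higher (44.4%) and 9 lower (33.3%), where 24.2% and 24.4% of all genes were. Sgsh, a sulfatase of heparan sulfate breakdown, stood at 8.20 ± 1.41 FPKM in Tumor-macrophage compared with 0.433 ± 0.116 in Tumor-AM (SD, n = 3 each), and was kept by the filter only for its Tumor-macrophage values. It is among the 12 hydrolases called higher. Pla2g15, a phospholipase, and Pld3, a lysosomal exonuclease, were lower by 1.13 and 0.89 on the log2 scale.

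Of 25 further membrane proteins and transporters, 6 (24.0%) were higher in Tumor-AM, against 7.11% of all genes. In TAMs 6 were higher and 8 lower, which is 24.0% and 32.0% against 24.2% and 24.4% of all genes. Slc11a1, a metal transporter gene of phagosomes, was at 2.83, 3.68 and 2.76 FPKM in Ctrl-AM, at 8.66, 19.3 and 17.7 in Tumor-AM and at 463, 416 and 447 in Tumor-macrophage. It rose in both steps (1.92 ± 0.232 and 4.84 ± 0.232, limma adjusted p of 0.000981 and 4.86e-08). Mcoln3, a channel related to Mcoln1, was at 110, 127 and 103, at 98.5, 105 and 105 and at 8.24, 5.76 and 10.0 FPKM, and Cd164, a sialomucin, fell from 467 ± 42.6 to 80.7 ± 5.29 (SD, n = 3 each). Mcoln3 and Mcoln1 were therefore both lower in TAMs, by 3.56 and 0.68 on the log2 scale.

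None of 13 sorting genes passed the threshold between the AM groups (3 were higher and 0 lower at an unadjusted p under 0.05 in the limma fit). Of all genes, 7.11% were called higher and 3.18% lower there, so few calls would be seen in a list of this size. In TAMs 3 were higher (23.1%) and 5 lower (38.5%), where 24.2% and 24.4% of all genes were. Sort1, sortilin, was at 78.6, 81.1 and 74.6 FPKM in Ctrl-AM, at 79.3, 83.6 and 75.3 in Tumor-AM and at 5.68, 2.97 and 5.27 in Tumor-macrophage (−3.87 ± 0.164, limma adjusted p = 2.02e-08). Its relative Sorl1 and the mannose 6-phosphate receptor Igf2r passed the filter only through TAMs, where they were at 8.15 ± 1.81 and 6.59 ± 1.41 FPKM compared with 0.613 ± 0.192 and 0.715 ± 0.305 in Tumor-AM (SD, n = 3 each). Both are among the 3 sorting genes called higher.

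Among 15 tested genes of nutrient sensing and lysosomal gene regulation, 1 (Rragc, 0.31) was higher in Tumor-AM, which is 6.67% against 7.11% of all genes. In TAMs 6 were higher (40%) and 3 lower (20%), where 24.2% and 24.4% of all genes were. Tfec, an MiT/TFE factor of myeloid cells, was the most reduced of them, at 54.8 to 60.8 FPKM in Ctrl-AM, at 42.5, 52.2 and 51.7 in Tumor-AM and at 13.4, 12.5 and 14.7 in Tumor-macrophage (−1.77 ± 0.099, limma adjusted p = 1.38e-07). It was thus lower in TAMs together with Tfeb, whereas Tfe3 was higher. Lamtor2, of the complex that anchors mTORC1 to lysosomes, was lower by 0.75 on the log2 scale, and Fnip2, a partner of folliculin, was higher by 1.26.

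Of 7 listed inhibitors of cysteine cathepsins 4 were tested, and all 4 were higher in TAMs, where 24.2% of all genes were. Cst7, 1 of the 4, passed the filter only through TAMs, so its direction was set by the filter. Serpina3g was at 0.314, 0.276 and 0.670 FPKM in Ctrl-AM, at 7.73, 11.4 and 7.61 in Tumor-AM and at 127, 171 and 95.4 in Tumor-macrophage, and rose in both steps (2.79 ± 0.215 and 3.72 ± 0.215, limma adjusted p of 0.000132 and 1.77e-07). Cst7, cystatin F, was at 0.523, 1.38 and 0.642 FPKM, at 0.778, 0.205 and 0.563 and at 17.0, 18.4 and 16.4, and was thus apart only in TAMs.

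**Figure D5:**
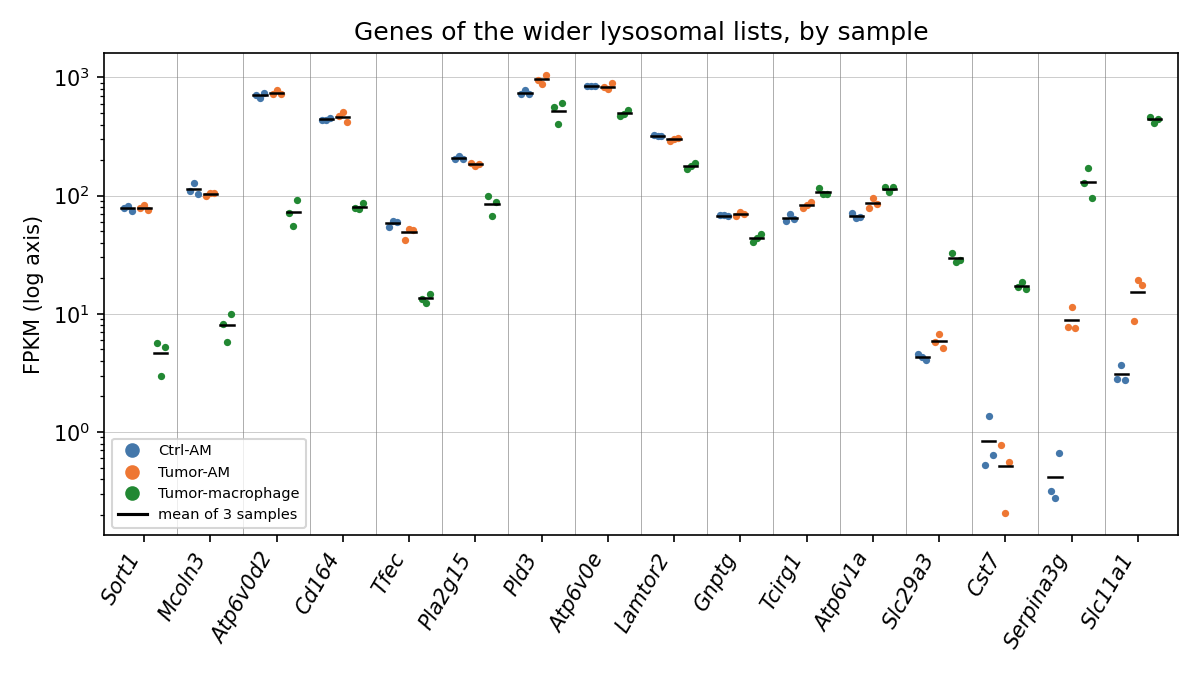
FPKM (log y axis) of 16 genes of the wider lists in the 9 samples, ordered by their change from Tumor-AM to Tumor-macrophage (x axis), a point per sample and a bar at the mean of 3 samples. Sort1, Mcoln3 and Atp6v0d2 on the left drop from the AM groups to Tumor-macrophage by a log2 change of −3.87, −3.56 and −3.36, and Slc11a1 on the right rises through all 3 groups.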

How the data were processed

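RNA was measured in 9 samples, 3 each of Ctrl-AM, Tumor-AM and Tumor-macrophage, grouped by the labels. The authors sequenced the libraries as 75-base single-end reads, aligned them to mm10 with TopHat and deposited FPKM per gene. For the FPKM, the paper's methods name Cufflinks, whereas the sample records name Cuffdiff. The annotation, the use of strand and the treatment of reads with several matches were not given in the sources used here. From the deposited FPKM, genes at 1 or more in at least 3 samples were kept, log2(FPKM + 1) was taken, and limma 3.58.1 (R 4.3.3; Python 3.11.15 elsewhere) was fitted to all 9 samples with 3 group means, an intensity trend and Benjamini-Hochberg adjustment over 10686 genes, with a threshold of 0.05. Fold changes are on this scale and understate changes of low genes. Intervals are 95% intervals of the fit, and p-values measure only the spread between these samples. The scripts were tested on simulated data.

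All 41 genes are described. Of the wider lists, only the 2 largest increases and 2 largest decreases past the threshold in each comparison and list were to be named. The members and lists were chosen with earlier results of these data known. Each fit was repeated with 0.1 as pseudocount, without the filter, with quantile normalization, TPM or median-ratio scaling, with a replicate block and without each sample. Gene positions and exon overlaps were taken from GENCODE vM21 and promoters from RefSeq, both on GRCm38. Values of 1 gene of the wider lists are not reported here.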

Additional observations from a re-analysis of the deposited data

How the results depend on the processing

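No called change of the 41 genes changed sign. For Tumor-AM minus Ctrl-AM, the genes called higher over all genes (760) numbered 348 with no filter, 468 after rescaling to TPM and 408 to 852 when a sample was left out, and those called lower (340) numbered 157, 837 and 121 to 403. Cathepsins higher (6) numbered 2 with no filter and 2 to 7 with a sample left out, and cathepsins lower (1) numbered 0 and 0 to 1. Other members higher (13) numbered 8 with no filter, 7 after TPM and 8 to 17 with a sample left out. Genes of the wider lists called higher (21) numbered 9 with no filter, 11 after quantile normalization, 9 after TPM and 8 to 26 with a sample left out, and those called lower (0) numbered 1 after quantile normalization and 6 after TPM. The share of higher among all calls went from 69.09% to 35.86% after TPM and 57.64% after quantile normalization. For Tumor-macrophage minus Tumor-AM, cathepsins lower (1) numbered 2 after quantile normalization, 2 after TPM and 1 to 2 with a sample left out. For Tumor-macrophage minus Ctrl-AM, genes called lower (2900) numbered 4412 after TPM, and the share of higher went from 50.51% to 32.59%. The causes were not tested.

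The replicate numbers were not said to pair samples, so they were not taken to do so. Deviations of same-numbered Tumor-macrophage and Tumor-AM samples from their group means correlated at a Pearson r of 0.026, 0.096 and 0.109. Between the other groups r ran from −0.062 to 0.159. With 3 samples a group, these values cannot decide whether samples were paired. With the replicate block, cathepsins lower in Tumor-macrophage minus Tumor-AM numbered 2, and wider-list genes higher in Tumor-AM numbered 13.

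Changes that were not called and turned sign were, after TPM, Ctso (−0.0001392), Scarb2 (−0.1058) and Tfe3 (−0.05878) in Tumor-AM minus Ctrl-AM, Gaa (−0.0454) and Asah1 (−0.01111) in Tumor-macrophage minus Tumor-AM, and Ids (−0.1022) and Ppt1 (−0.122) in Tumor-macrophage minus Ctrl-AM. After quantile normalization they were Scarb2 (−0.003096), Asah1 (−0.002788), Cd68 (−0.2063) and, against Ctrl-AM, Ctsd (−0.3812). Of these, Cd68 against Tumor-AM and Ctsd against Ctrl-AM, not called in the main fit, then passed the threshold as lower in Tumor-macrophage. With a sample left out, Scarb2 ran from −0.00111 to 0.08258, Gaa from −0.07297 to 0.1658, Smpd1 from −0.1043 to 0.05608 and Galns against Ctrl-AM from −0.1175 to 0.01843. The filter left all 41 genes in, so shares with and without it were the same. Depth limits mainly Tfeb and Ctsf, with fewest estimated reads.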
